A study of Mus musculus with 15 samples.

Results

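Keratins tell which kind of epithelium a cell belongs to, and 10 of them were followed through RNA-seq of mouse endometrial epithelial organoids: Krt7, Krt8, Krt18 and Krt19, the keratins of simple (single-layered, luminal) epithelia, and Krt5, Krt14, Krt15, Krt17, Krt13 and Krt6a, the keratins of basal and stratified epithelia. The members were the rows of the normalized matrix whose Ensembl identifiers map to these symbols. All 10 were found among its 16729 genes, which hold 28 other keratins.

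Organoids are cultures in which isolated uterine epithelium grows as closed bodies in Matrigel. Control + vehicle (n = 3) and control + A83-01 (n = 4) organoids came from Smad2flox/flox; Smad3flox/flox mice, while organoids of the Smad2/3 cKO group (n = 4) and those named Smad2/3 cKO + A83-01 (n = 4) were from mice that carried Ltfcre/+ as well, so that all 15 samples had the floxed alleles and only the cKO samples had Cre. The vehicle was DMSO, also for the Smad2/3 cKO group, and A83-01 inhibits ALK4, ALK5 and ALK7, the receptor kinases upstream of SMAD2 and SMAD3. The mice were adults of mixed C57BL/6J and 129S5/SvEvBrd background. Cre came from the lactoferrin (Ltf) locus, which is active in uterine epithelium once it responds to estrogen, and estradiol had been given at weaning to switch it on. Organoids were passaged before RNA was taken, and each sample is the RNA of a whole culture. The deposited values are normalized counts (estimated counts divided by a size factor per sample), which summed to between 20241771 and 24423127 per sample. Fold changes are on the scale of log2(normalized count + 1), which understates the change of low genes.

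Keratins form the intermediate filaments of epithelial cells. A filament is built from pairs of a type I keratin (Krt18, Krt19, Krt14, Krt15, Krt17 and Krt13 among the 10) and a type II keratin (Krt7, Krt8, Krt5 and Krt6a), and the usual partners are Krt8 with Krt18 in simple epithelia and Krt5 with Krt14 in the basal layer of stratified epithelia. Krt7 and Krt19 are typical of ducts and glands, Krt13 of the upper layers of moist stratified epithelia, Krt15 of basal cells, and Krt17 and Krt6a of wounded or rapidly growing skin. The endometrium is lined by a simple columnar epithelium, whereas the vagina and outer cervix are lined by a stratified squamous one.

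In GRCm38 (GENCODE; the counts were made on GRCm39, so that positions differ from those of the files) Krt8 (chromosome 15, 101996698 to 102004482, minus strand) and Krt18 (chromosome 15, 102028180 to 102032027, plus strand) are neighbours, although Krt18 is a type I keratin. Krt7 (101411043 to 101430313, plus strand) and Krt5 (101707070 to 101712898, minus strand) are on the same chromosome, and Krt19 (100140810 to 100148665, minus strand) is among the other type I keratins on chromosome 11. The 250 bases before the RefSeq start sites of Krt7, Krt8 and Krt18 are printed because these genes varied together from sample to sample, and Krt5 is set beside them as the low basal keratin of the same chromosome. The sequences are from RefSeq (GRCm38.p6), which gave a promoter for 6 of the 10 members, and not for Krt19, Krt15, Krt17 and Krt6a. The windows are chr15:101412153-101412402 (Krt7, plus strand), chr15:102004343-102004592 (Krt8, minus strand), chr15:102027966-102028215 (Krt18, plus strand) and chr15:101712906-101713155 (Krt5, minus strand). They end at the RefSeq start site, which is not the outermost base of the GENCODE gene, so that the Krt7 window lies within the span given above and those of Krt8 and Krt18 overlap the spans of these genes. Capitals mark matches on either strand to GGGCGG (a GC box) or CAGAC (a SMAD-binding element). The motif of the AP-1 factor, TGANTCA, and that of the basal promoter, TATAAA, were searched as well.
Krt7: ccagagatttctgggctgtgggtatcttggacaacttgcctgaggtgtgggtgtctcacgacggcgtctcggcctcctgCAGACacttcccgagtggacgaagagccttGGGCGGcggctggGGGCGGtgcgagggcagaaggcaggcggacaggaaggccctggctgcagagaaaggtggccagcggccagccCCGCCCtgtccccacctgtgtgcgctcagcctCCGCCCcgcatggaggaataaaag
Krt8: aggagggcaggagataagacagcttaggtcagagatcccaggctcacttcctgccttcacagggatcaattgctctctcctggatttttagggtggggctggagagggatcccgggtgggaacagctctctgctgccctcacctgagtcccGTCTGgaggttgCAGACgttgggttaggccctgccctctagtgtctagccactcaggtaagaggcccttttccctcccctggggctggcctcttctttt
Krt18: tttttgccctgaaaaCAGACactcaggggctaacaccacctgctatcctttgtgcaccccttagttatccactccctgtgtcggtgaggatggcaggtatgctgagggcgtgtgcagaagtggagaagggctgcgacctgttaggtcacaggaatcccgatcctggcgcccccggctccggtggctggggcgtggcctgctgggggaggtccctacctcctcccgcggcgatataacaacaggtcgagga
Krt5: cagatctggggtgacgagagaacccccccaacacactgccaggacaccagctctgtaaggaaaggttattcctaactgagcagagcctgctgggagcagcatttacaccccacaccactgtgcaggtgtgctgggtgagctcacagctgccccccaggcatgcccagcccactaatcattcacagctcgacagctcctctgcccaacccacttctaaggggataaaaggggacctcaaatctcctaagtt

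The Krt7 window held 4 matches to GGGCGG and 1 to CAGAC, the Krt8 window 2 to CAGAC and the Krt18 window 1 to CAGAC. The Krt5 window held none of the 4 motifs, and TATAAA and TGANTCA were in none of these windows. Of 32851 promoter windows of the same length, 42.2% held CAGAC, 32.7% GGGCGG, 12.4% TATAAA and 6.7% TGANTCA, so that a match to CAGAC is common among promoters.

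The labelled cell type was looked at through Epcam, an epithelial marker chosen after its values were seen. Of the 26 simple and uterine epithelial genes given further below, 3 fell in Smad2/3 cKO organoids and 23 did not pass. Cldn4, at -2.55 on the log2 scale, was among those that fell. Epcam, an adhesion molecule of epithelial cells, had a mean of 23268 ± 1937 (SD, n = 3) in control + vehicle, 25458 ± 3018 (SD, n = 4) when these were given A83-01, 24265 ± 3024 (SD, n = 4) in Smad2/3 cKO organoids and 24536 ± 1813 (SD, n = 4) in those with A83-01. Vim, the intermediate filament of stromal cells, was at most 36.5 in any sample. Fn1, which encodes fibronectin, a known TGFβ target, was 1884 to 5624 with vehicle alone and at most 21.2 in the other 12 samples. Smad2 was 1045 to 1335 with vehicle alone and 820.7 to 923.9 in Smad2/3 cKO organoids, a difference that did not pass (log2 fold change -0.41, adjusted p = 0.0656 by limma). Smad2 was 803.6 to 1211 in Smad2/3 cKO + A83-01, which overlapped with vehicle alone. Smad3 was 1532, 1741 and 1599 with vehicle alone and 1170, 1640, 1516 and 1977 in Smad2/3 cKO organoids, which also overlapped (-0.07, SE 0.18, 95% interval -0.47 to 0.34, adjusted p = 0.827 by limma). The counts cover whole genes, and a transcript that lacks only the floxed exons is still counted.

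Markers of other cell types moved with the groups. Of 10 uterine stroma markers 9 were in the matrix. They summed to 297.3 to 831.9 with vehicle alone, most of it Vcam1, and to 28.4 to 284.9 elsewhere, with 0 to 7 of the 9 at 0 in a sample. Vcam1, an adhesion molecule, fell in Smad2/3 cKO organoids (-3.3, SE 0.58, adjusted p = 0.0056), a call kept under 11 of 17 alternatives. Of 8 leukocyte markers 7 were in the matrix. They summed to 1332 to 2976 with vehicle alone and to 2119 to 8811 elsewhere, with Cd68, a lysosomal protein, the most abundant. Ptprc, the CD45 antigen of leukocytes, was 12.5 to 38.6 with vehicle alone and rose to 122.7 to 308.7 in Smad2/3 cKO organoids (3.33, SE 0.46, adjusted p = 0.00228), a call kept under 14 of 17 alternatives. With A83-01 in control organoids Ptprc was at 2.82 (SE 0.56, adjusted p = 0.019) and Cd68 at 1.5 (SE 0.35, adjusted p = 0.034), and both passed with the replicate block (adjusted p = 0.00716 and 0.00311). Of 6 mesothelium markers Msln and 1 other were in the matrix, at 10634 to 31301 with vehicle alone and 1612 to 17108 elsewhere, almost all of it Msln, mesothelin. Msln was 12060 in Smad2/3 cKO replicate 3 and 2331 to 5652 in the rest of that group. Smooth muscle markers summed to 73.9 to 219.3 with vehicle alone and 29.9 to 86.6 elsewhere (4 of 7 in the matrix, Acta2 first, which fell in Smad2/3 cKO organoids by 3.12 on the log2 scale, adjusted p = 0.00841, a call kept under 5 of 17 alternatives). Ciliated cell markers (3 of 6, Pifo first) summed to 71.4 to 95.02 with vehicle alone, 14.9 to 74.6 for control + A83-01, 8.764 to 55.2 in Smad2/3 cKO organoids and 11.4 to 43.9 in those with A83-01. Endothelial markers (3 of 6, Vwf first) summed to 19.8 to 39.4 with vehicle alone and 12.8 to 69.0 elsewhere. Markers of vaginal and ectocervical squamous epithelium, all 10 in the matrix and Krt4 first, summed to 3848 to 8802 with vehicle alone, 7878 to 14896 for control + A83-01, 3020 to 8309 in Smad2/3 cKO organoids and 6888 to 16755 in those with A83-01. The part of these markers in the keratin values was not tested, and in bulk samples fewer cells of a type and less RNA per cell cannot be told apart. In its keratins Smad2/3 cKO replicate 3 stood apart: it had the highest value of its group for each of the 10 except Krt5. It was singled out by these values, many of which varied together. The share of all genes for which it was highest was not counted. Between whole samples it was not set apart: its r with replicates 1, 2 and 4 was 0.9467, 0.937 and 0.9481. Replicate 2 had 0.9382, 0.937 and 0.9456 with replicates 1, 3 and 4. The calls that change without replicate 3 are named.

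The simple keratins made up most of the keratin RNA. Per kilobase of the principal transcript, the scale on which genes can be compared, the mean over the 15 samples was 28209 for Krt18, 18549 for Krt7, 14026 for Krt8 and 11826 for Krt19. Next came Krt4 (3436), a keratin of moist stratified epithelia, and Krt87 (3197), a hair keratin. The place of Krt7 rests on its annotated transcript of 4094 bases, against 1437 to 1958 for the other 3, and in normalized counts not corrected for length it was the 15th most abundant of all genes and Krt18 the 42nd. The highest basal member per kilobase was Krt17 with 85.6, and the lowest was Krt14 with 2.28.

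Krt8, the type II partner of Krt18, was highest with vehicle alone, at 59890, 43440 and 39349 normalized counts. It was 37469, 19717, 29323 and 36211 in control + A83-01. It was 15797, 11942, 30243 and 13136 in Smad2/3 cKO organoids, and 11039, 23507, 22322 and 18561 in those with A83-01. All 12 samples with A83-01 or Cre were below all 3 samples with neither. How many of all genes separate these 3 samples from the other 12 was not counted, here or for the measures below. In single comparisons with control + vehicle, 21.7% of all genes did not overlap for control + A83-01 and 30.8% for Smad2/3 cKO.

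Krt19, a small type I keratin of ductal and luminal cells, was 30821, 27950 and 43966 with vehicle alone. It was 26407, 12113, 22265 and 27670 in control + A83-01. It was 6539, 5765, 19471 and 10143 in Smad2/3 cKO organoids, and 5862, 11334, 13853 and 15415 in those with A83-01. Again no sample with A83-01 or Cre reached the lowest of the 3 others, although control + A83-01 replicate 4 came close.

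Krt18 was 63632, 43391 and 44466 with vehicle alone and 57865, 30833, 42279 and 59598 in control + A83-01, so that these groups overlapped. It was 29633, 24934, 42158 and 27365 in Smad2/3 cKO organoids and 26550, 42087, 39714 and 33549 in those with A83-01, all below the control + vehicle range, the highest by a small margin. Krt7 was 118839, 89977 and 94100 with vehicle alone, 99519, 50549, 82787 and 105912 for control + A83-01, 57634, 41703, 96520 and 56308 in Smad2/3 cKO organoids and 41717, 63330, 70497 and 69722 in those with A83-01. Among the cKO samples replicate 3 without A83-01 was the only one to enter the control + vehicle range of Krt7.

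**Figure D1:**
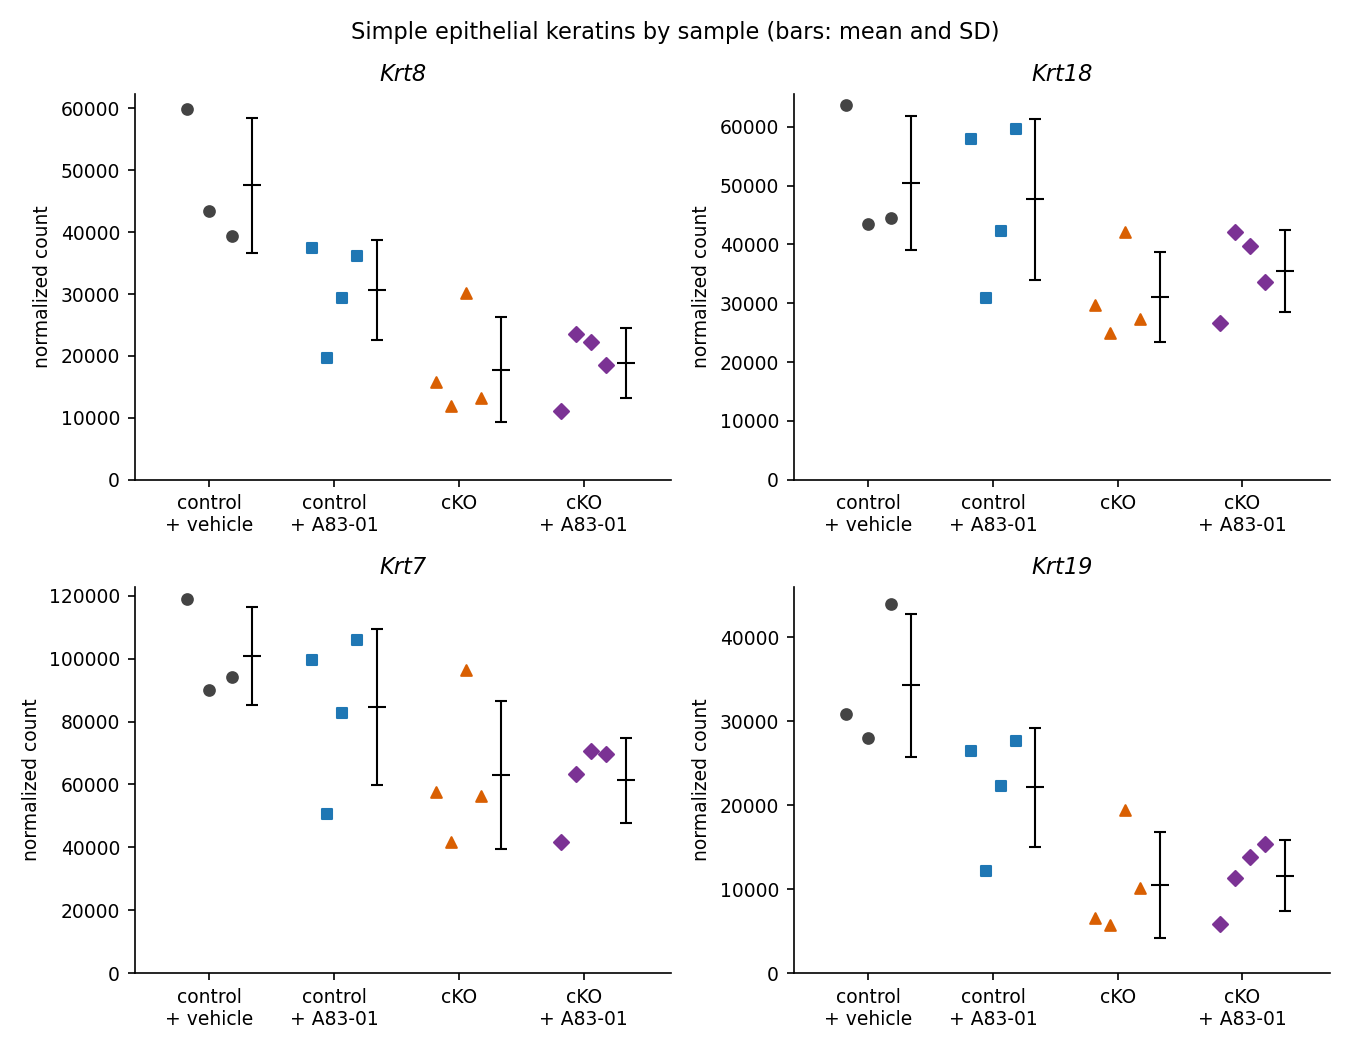
Normalized count (vertical axes, from 0) of Krt8, Krt18, Krt7 and Krt19 in each sample of the 4 groups, with the mean and SD of each group. The 3 control + vehicle samples lie above all others for Krt8 and Krt19, and a single Smad2/3 cKO sample, replicate 3, lies above the rest of its group in each panel.

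By group means Krt8 ran from 47559 ± 10872 (SD, n = 3) in control + vehicle over 30680 ± 8138 (SD, n = 4) in control + A83-01 and 18857 ± 5623 (SD, n = 4) in Smad2/3 cKO + A83-01 to 17780 ± 8464 (SD, n = 4) in Smad2/3 cKO. Krt19 had the same order, with 34246 ± 8539, 22114 ± 7056, 11616 ± 4188 and 10479 ± 6291. In both genes the first pair of neighbours did not overlap, the second pair did, and the cKO groups differed by far less than their SDs.

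With A83-01 in control organoids 0 of the 8 members tested passed the thresholds of limma (an adjusted p under 0.01, Benjamini-Hochberg, together with a fold of more than 1.4 either way), where 2.27% of 13009 genes did. Krt5 and Krt14 had a mean under 10 in these samples and were not tested. Krt8 and Krt6a had an unadjusted p below 0.05, as did 22.2% of all genes. The groups did not overlap for Krt8 and Krt19, as for 21.7% of all genes. Krt8 was at -0.65 on the log2 scale (SE 0.27, adjusted p = 0.201) and Krt19 at -0.67 (SE 0.31, adjusted p = 0.249). Samples 1 to 3 of the control groups pair by their label numbers, and with the replicate block Krt8 was at -0.75 (SE 0.18, adjusted p = 0.0484) and Krt19 at -0.80 (SE 0.21, adjusted p = 0.0576), which does not pass either. The 95% interval was -0.98 to 0.39 for Krt7 and -0.75 to 0.53 for Krt18. The median over the 8 members was -0.66, against -0.02 over all genes.

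In Smad2/3 cKO organoids against control + vehicle 0 of 8 members passed, where 7.38% of 13149 genes did, with Krt19 and Krt8 just outside the threshold. Krt19 was at -1.85 (SE 0.39, a fold of 0.277, adjusted p = 0.0118) and Krt8 at -1.5 (SE 0.32, a fold of 0.354, adjusted p = 0.0124). Krt18 was at -0.71 (SE 0.23, adjusted p = 0.0643) and Krt7 at -0.74 (SE 0.29, adjusted p = 0.113). The groups did not overlap for Krt8, Krt18 and Krt19, as for 30.8% of all genes. Krt19, Krt8 and Krt6a would pass at an adjusted p of 0.05, as 18.3% of all genes would, and 5 members had an unadjusted p below 0.05, against 33.7% of all genes. The 8 estimates were below 0, with a median of -1.68 where that of all genes was 0.00. They leave out Krt14 and Krt5, whose means were under 10 (Krt5 was at 2.22 without this filter), and hold Krt15 through its control + vehicle values (mean 33.7, against 6.39 in Smad2/3 cKO).

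These calls depended on Smad2/3 cKO replicate 3, the sample singled out above by its keratin values. Without it Krt19 was at -2.21 (adjusted p = 0.00154 by limma), Krt8 at -1.79 (adjusted p = 0.00168) and Krt6a at -3.21 (adjusted p = 0.00571), so that 3 of 8 members passed, where 7.55% of 13144 genes did. Krt13 was then at -3.51 (adjusted p = 0.0327), Krt15 at -2.56, Krt7 at -0.96 (adjusted p = 0.0281), Krt18 at -0.87 (adjusted p = 0.0261) and Krt17 at -0.59. Krt19, Krt8 and Krt6a also passed when all 4 groups shared an estimate of the spread, with adjusted p = 0.00616, 0.00595 and 0.00795, where 9.33% of all genes passed. Leaving out any other sample of this comparison let none pass. The comparisons of A83-01 with vehicle and of cKO with control use the same 3 control + vehicle samples, so that their values are not independent.

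**Figure D2:**
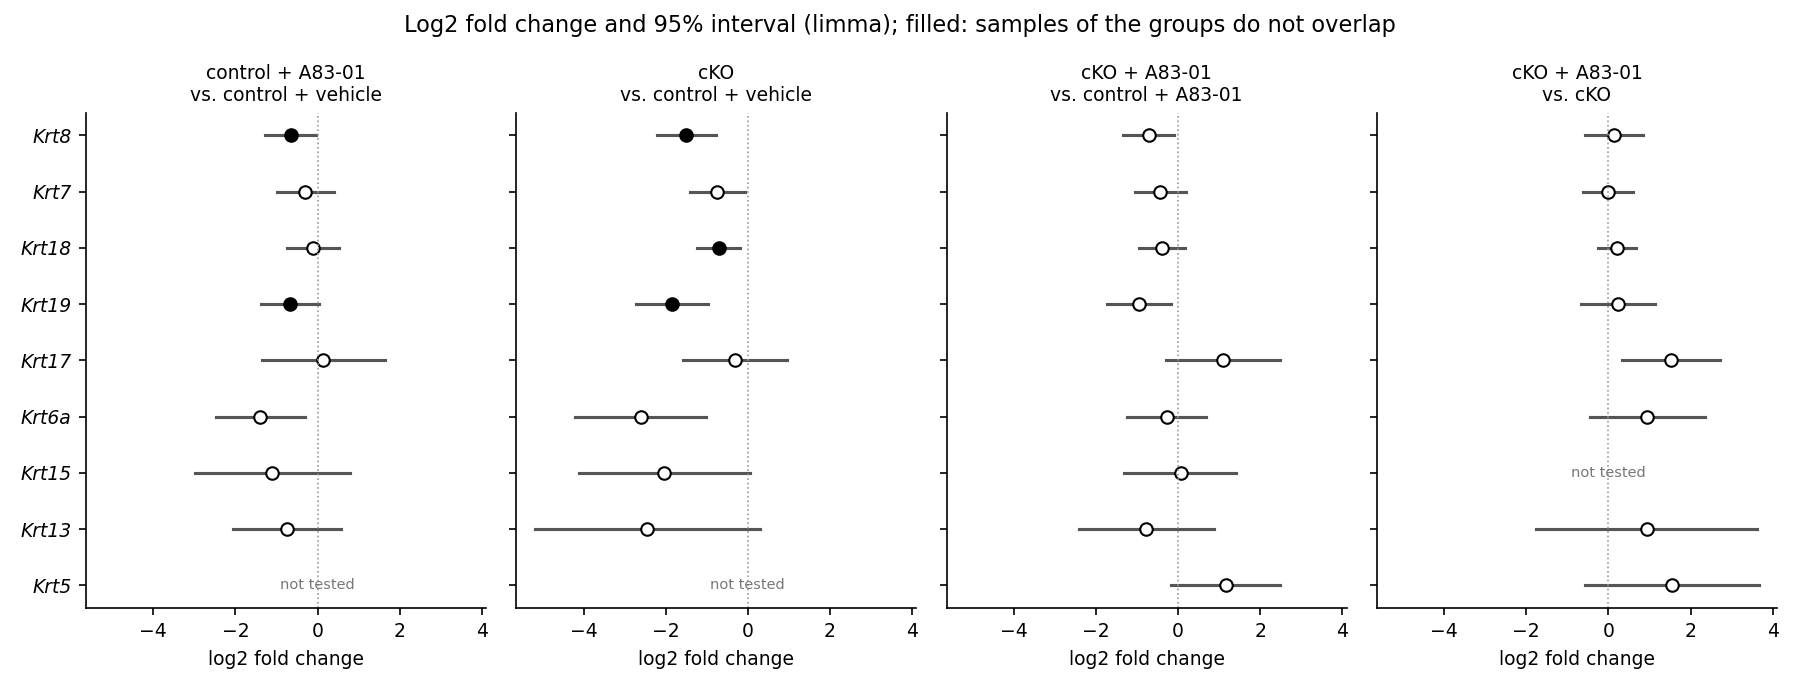
Log2 fold change (horizontal axis) with its 95% interval from limma for 9 keratins in 4 comparisons of groups. Filled points mark genes whose groups did not overlap (Krt8 and Krt19 with A83-01 in control organoids, and Krt8, Krt18 and Krt19 in Smad2/3 cKO organoids), and no point passed the adjusted p of 0.01.

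Between the genotypes, both grown with A83-01, 0 of 9 members passed, against 0.0232% of 12915 genes. Krt19 was at -0.95 (SE 0.34, adjusted p = 0.407) and Krt8 at -0.72 (SE 0.28, adjusted p = 0.459), the 2 members with an unadjusted p below 0.05 (9.52% of all genes). All 9 overlapped between the groups, where 6.12% of all genes did not.

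With A83-01 in Smad2/3 cKO organoids 0 of 8 members passed, and 0% of 12998 genes, in a fit without pairs. The 95% interval was -0.58 to 0.84 for Krt8, -0.61 to 0.60 for Krt7, -0.26 to 0.66 for Krt18 and -0.67 to 1.13 for Krt19. Krt17 (1.53, SE 0.53, adjusted p = 0.994) was the 1 member with an unadjusted p below 0.05 (4.26% of all genes), and none was free of overlap (2.90% of all genes).

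Whether A83-01 acted differently by genotype was tested as an interaction over all 15 samples, in which 0 of 9 members passed, against 0.551% of 13066 genes. It was 0.78 for Krt8 (SE 0.46, adjusted p = 0.487), 0.91 for Krt19 (SE 0.57, adjusted p = 0.532) and 2.33 for Krt6a (SE 0.83, adjusted p = 0.199), the 1 member with an unadjusted p below 0.05 (14.3% of all genes).

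The simple keratins varied together. Over the 15 samples Pearson's r of log2 values was 0.939 for Krt7 with Krt8, 0.931 for Krt8 with Krt18 and 0.851 for Krt18 with Krt19, and after removal of the group means 0.939, 0.944 and 0.728. Samples share their normalization and, in part, their label numbers, and no p is given. For Krt5 with Krt8 it was -0.324, and 0.442 after removal of the group means.

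Although Krt8 and Krt18 varied together, their ratio differed between the groups. Krt8 divided by Krt18, in normalized counts, was 0.941, 1.00 and 0.885 with vehicle alone and 0.648, 0.639, 0.694 and 0.608 in control + A83-01. It was 0.533, 0.479, 0.717 and 0.480 in Smad2/3 cKO organoids, and 0.416, 0.559, 0.562 and 0.553 in those with A83-01. All 12 samples with A83-01 or Cre were below the 3 others, and cKO replicate 3 was the highest of the 12. The ratio was chosen after its values were seen and was not tested. Krt8-ps, a processed copy that shares 32.2% of the 31-base words of the Krt8 transcript, was at most 16.8 in any sample.

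The balance of all type II over all type I keratins, summed per kilobase, went the other way, from 0.832 to 0.996 with vehicle alone to 1.04 to 1.12 in Smad2/3 cKO organoids. It was 0.946 to 1.03 for control + A83-01 and 0.992 to 1.16 in Smad2/3 cKO + A83-01. The simple keratins held 91.2% to 93.9% of the keratin signal per kilobase with vehicle alone, 85.8% to 88.2% for control + A83-01, 80.6% to 89.2% in Smad2/3 cKO organoids and 77.8% to 86.0% in those with A83-01. The control + vehicle samples were thus above all others. Of all normalized counts, simple keratins were 1.01% to 1.21% with vehicle alone and 0.365% to 0.975% elsewhere.

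**Figure D3:**
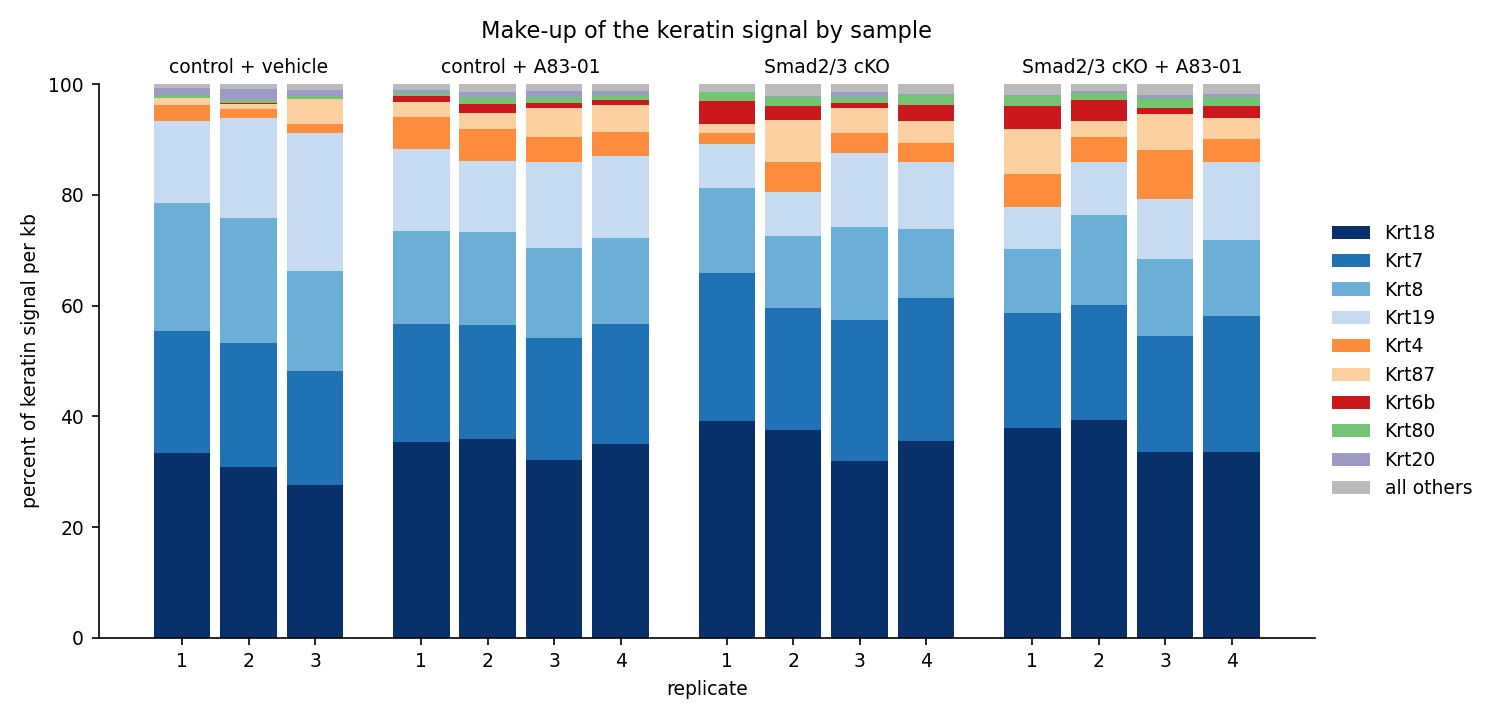
Share of each keratin in the summed keratin signal per kilobase (vertical axis, percent) in each sample, by group and replicate. Krt18, Krt7, Krt8 and Krt19 together hold 77.8% to 93.9%, and Krt6b is at most 0.1% in control + vehicle and 0.8% to 4.1% in the other 12 samples.

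The 6 basal and stratified members held 0.054% to 0.32% of the keratin signal per kilobase. Krt5, the type II keratin of basal cells, was 0, 1.84 and 0 with vehicle alone, where values of 3 or less count as the floor. It was 7.39, 10.1, 8.70 and 5.03 in control + A83-01. It was 19.8, 0, 11.7 and 6.10 in Smad2/3 cKO organoids, and 6.64, 27.6, 30.6 and 18.7 in those with A83-01. Krt5 was thus at the floor in all 3 samples with vehicle alone and above it in 11 of the other 12. With a mean under 10 it was left out of the fits against control + vehicle. It did not pass with A83-01 in cKO organoids (1.54, SE 0.95, adjusted p = 0.994), between the genotypes with A83-01 (1.16, SE 0.60, adjusted p = 0.595) or as an interaction (-1.06, SE 1.24, adjusted p = 0.777). Krt5 entered these fits only through Smad2/3 cKO + A83-01 (mean 20.89). Its means were 9.406 in Smad2/3 cKO and 7.812 in control + A83-01.

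Krt14, the usual partner of Krt5, was 16.2, 4.84 and 21.1 with vehicle alone and 0, 0, 0.775 and 1.322 in control + A83-01. It was 2.55, 0, 7.32 and 0 in Smad2/3 cKO organoids, and 0, 1.00, 1.31 and 1.70 in those with A83-01. Krt14 was thus above the floor in all 3 samples with vehicle alone and at or below it in 11 of the other 12. When genes of all levels entered the fit of A83-01 in control organoids, the adjusted p was 0.0399 for Krt5 (2.6, SE 0.62) and 0.0261 for Krt14 (-3.19, SE 0.68), neither of which passes. The same fit of Smad2/3 cKO against control + vehicle gave 0.185 for Krt5 (2.22, SE 1.02) and 0.0975 for Krt14 (-2.48, SE 0.90), and there both genes overlapped between the groups. Of the 31-base words of Krt14 18.2% also occur in Krt16, and of those of Krt5 9.5% in Krt6a.

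Krt15 was 21.0, 7.29 and 72.7 with vehicle alone, 14.8, 15.6, 10.5 and 4.02 for control + A83-01, 3.82, 2.93, 16.4 and 2.46 in Smad2/3 cKO organoids and 6.71, 7.60, 12.4 and 18.8 in those with A83-01. Krt13 was 18.7, 16.3 and 60.2 with vehicle alone, 14.6, 18.8, 12.3 and 16.8 for control + A83-01, 1.89, 3.86, 44.9 and 0 in Smad2/3 cKO organoids and 1.11, 13.7, 19.3 and 12.4 in those with A83-01. In both, replicate 3 of control + vehicle and of Smad2/3 cKO was the highest of its group. Against control + vehicle, Smad2/3 cKO organoids were at -2.03 for Krt15 (SE 0.92, adjusted p = 0.156) and -2.45 for Krt13 (SE 1.22, adjusted p = 0.194).

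Krt17 was 81.5, 168 and 46.2 with vehicle alone, 29.3, 105, 152 and 168 for control + A83-01, 101, 49.3, 124 and 37.0 in Smad2/3 cKO organoids and 71.7, 297, 295 and 265 in those with A83-01. Replicates 2 to 4 of the last group were above every other sample, and its replicate 1 was not. The genotypes grown with A83-01 differed by 1.09 (SE 0.62, adjusted p = 0.649).

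**Figure D4:**
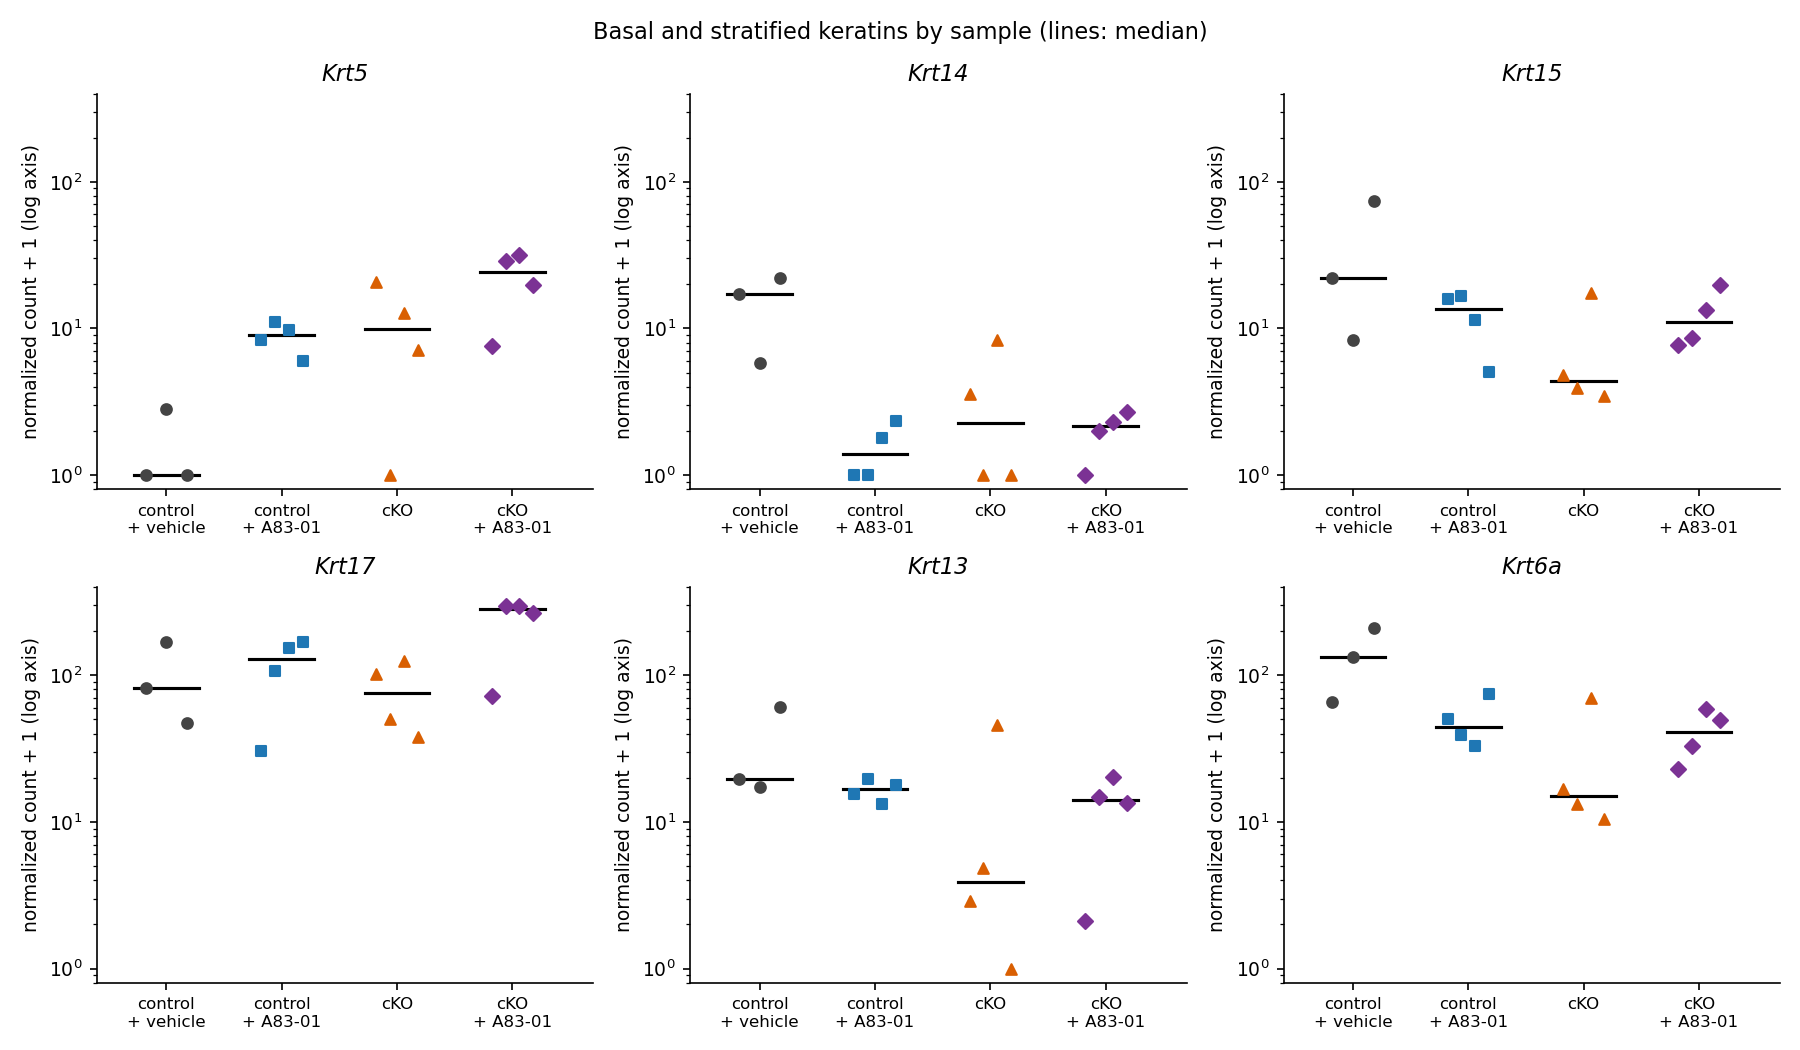
Normalized count plus 1 (log axis) of the 6 basal and stratified keratins in each sample, with the median of each group as a line. In control + vehicle Krt5 is at 0 to 1.84 and Krt14 at 4.84 to 21.1, and elsewhere Krt5 reaches 30.6 and Krt14 7.32.

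Krt6a and its neighbour Krt6b are type II keratins of closely related sequence. Krt6a was 65.1, 133 and 209 with vehicle alone. It was 49.0, 38.2, 32.0 and 73.4 in control + A83-01, which overlapped (-1.39, SE 0.48, adjusted p = 0.122). It was 15.7, 12.3, 69.2 and 9.50 in Smad2/3 cKO organoids, which overlapped through replicate 3 (-2.61, SE 0.70, adjusted p = 0.0316), and 21.8, 31.8, 58.3 and 48.8 in those with A83-01.

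Krt6b was 138.7, 126.4 and 170.6 with vehicle alone. It rose to 2508, 2120, 1628 and 2208 in control + A83-01 (3.85, SE 0.21, a fold of 14.4, adjusted p = 4.46e-05 by limma). It rose to 4871, 2685, 1689 and 3523 in Smad2/3 cKO organoids (4.36, SE 0.32, a fold of 20.5, adjusted p = 0.000145). It was 4484, 6438, 1927 and 3527 in Smad2/3 cKO + A83-01, which overlapped with Smad2/3 cKO (0.33, SE 0.39, 95% interval -0.53 to 1.20, adjusted p = 0.994). The lowest of these 12 samples was far above the highest with vehicle alone, and the interaction of genotype and A83-01 passed as well (-3.52, SE 0.49, adjusted p = 0.00153). Krt6b kept its call under all 17 alternatives in each comparison with control + vehicle.

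Of the 31-base words of the Krt6a transcript 49.3% occur in Krt6b, and 50.3% of those of Krt6b occur in Krt6a, so that the split of reads between them is an estimate. Their sum was 203.9, 259.6 and 379.5 with vehicle alone and 1660 to 6470 in the other 12 samples. The higher level thus held for the pair as a whole, whereas the values of Krt6a alone rest on the split.

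**Figure D5:**
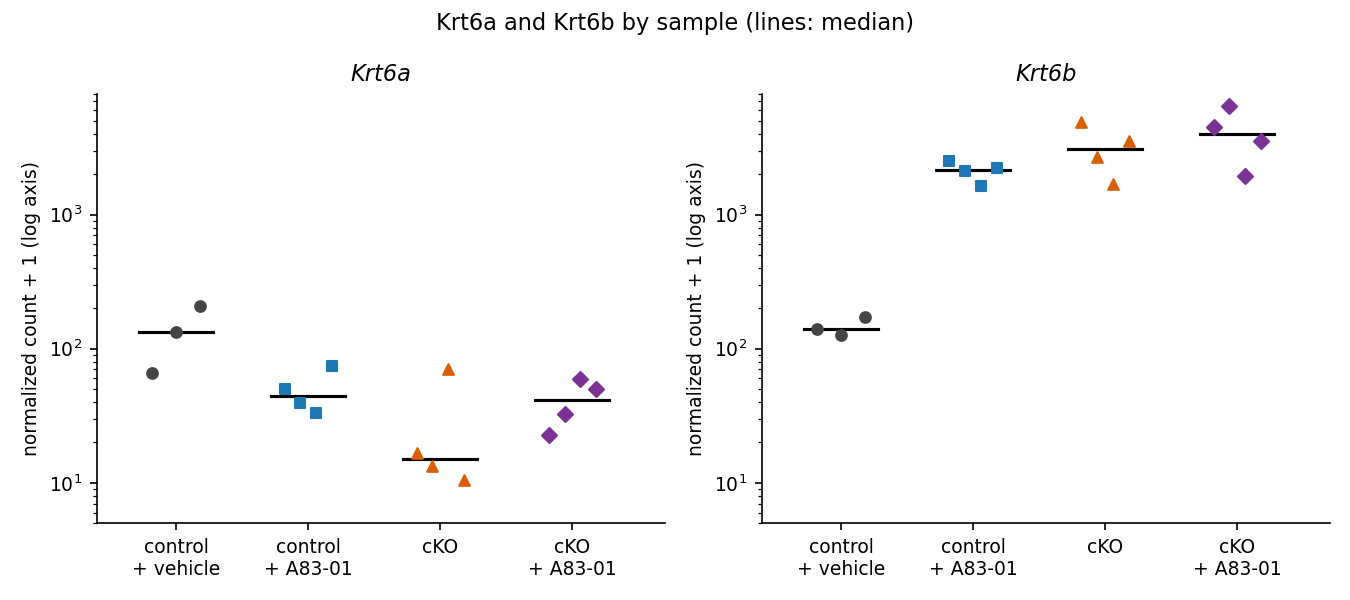
Normalized count plus 1 (log axis) of Krt6a and Krt6b in each sample, with the median of each group as a line. Krt6b lies at 126.4 to 170.6 in control + vehicle and at 1628 to 6438 elsewhere without overlap, and Krt6a at 65.1 to 209 and 9.50 to 73.4.

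Of the 28 other keratins 15 had a mean of at least 10. Of the 15 tested in Smad2/3 cKO organoids 2 passed beside Krt6b, where 7.38% of all genes did. Krt80, a type II keratin of differentiating epithelia, rose from a range of 1550 to 1853 to one of 2330 to 3240 (0.72, SE 0.15, adjusted p = 0.00999), and Krt25, a hair follicle keratin, fell from a range of 24.9 to 50.04 to one of 0 to 3.82 (-4.0, SE 0.78, adjusted p = 0.00849). These calls held under only 5 of 17 and 5 of 16 alternatives. Krt25 reached the mean of 10 needed for the fit only through its control + vehicle values. Krt20, a keratin of intestinal and bladder surface cells, was 2443 to 3803 with vehicle alone, 929.5 to 1891 for control + A83-01 (-1.23, SE 0.30, adjusted p = 0.0422), 86.5 to 1626 in Smad2/3 cKO organoids (-3.54, SE 0.82, adjusted p = 0.0175) and 174.3 to 870.0 in those with A83-01. It was above all other samples with vehicle alone. The highest Smad2/3 cKO value was again that of replicate 3, and without this sample the others were at 86.5 to 254.7 and Krt20 passed (-4.4, SE 0.37, adjusted p = 0.00042). Without any other single sample of this comparison the adjusted p of Krt20 by limma was 0.0325 to 0.0657, which does not pass.

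Krt12, the keratin of the cornea, was 543.4 to 746.0 with vehicle alone and 7.76 to 173.7 in Smad2/3 cKO organoids (-3.15, SE 0.91, adjusted p = 0.0418). Its lowest value was that of replicate 2, without which it passed (-2.15, SE 0.25, adjusted p = 0.00195). Without any other single sample of this comparison the adjusted p of Krt12 by limma was 0.032 to 0.107, which does not pass. Krt4 was 3316 to 8056 with vehicle alone and 7323 to 14070 in control + A83-01 (1.11, SE 0.33, adjusted p = 0.081). With the replicate block it passed (1.06, SE 0.14, adjusted p = 0.00625). Krt79, a keratin of the hair canal, was 25.3 to 36.8 and 66.5 to 105.4 in these groups (1.43, SE 0.36, adjusted p = 0.0462). Krt10, Krt16, Krt23, Krt39, Krt78, Krt83, Krt84 and Krt87 did not pass.

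Plakins and desmosomal plaque proteins tie keratin filaments to cell junctions. Of 16 plakin, plaque and desmosome genes tested, 0 passed with A83-01 in control organoids (median -0.47, and -0.02 for all genes) and 1 in Smad2/3 cKO organoids (median -0.50), near the 2.27% and 7.38% of all genes. This was Pkp3, the desmosomal plakophilin 3, which fell from 2235 ± 86.6 (SD, n = 3) to 1387 ± 148.7 (SD, n = 4), at -0.69 (SE 0.13, adjusted p = 0.00712), a call kept under 8 of 17 alternatives. Dsp, desmoplakin, which binds keratin filaments, was at -0.23 (SE 0.26, adjusted p = 0.566). With the replicate block Plec, plectin, a linker of keratin filaments to hemidesmosomes, passed with A83-01 (-1.06, SE 0.13, adjusted p = 0.00562).

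Of 13 basal cell and hemidesmosome genes tested, 0 passed with A83-01 in control organoids, and in Smad2/3 cKO organoids 2 rose and 2 fell around a median of -0.26, where 2.27% and 7.38% of all genes passed. Trp63, the transcription factor of basal cells, was at most 4.91 with vehicle alone and 25.6 to 109.3 in Smad2/3 cKO organoids (adjusted p = 0.00714), and Itga6, integrin α6 of hemidesmosomes, was at 1.23 (SE 0.24, adjusted p = 0.00825). Lama3, which encodes a chain of the basement membrane laminin that hemidesmosomes bind, was at -2.82 (SE 0.44, adjusted p = 0.00368). It also passed with A83-01 under the replicate block (-2.67). Trp63 reached the mean needed for the fit only through its Smad2/3 cKO values. Trp63 kept its call under 6 of 16 alternatives and Itga6 under 7 of 17.

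Of 19 squamous differentiation genes tested, 1 rose and 3 fell with A83-01 in control organoids, and 1 rose and 5 fell in Smad2/3 cKO organoids, where 2.27% and 7.38% of all genes passed. Sprr2g, a small proline-rich protein, rose in both (2.75, SE 0.37, adjusted p = 0.00374, and 2.11, SE 0.39, adjusted p = 0.00691). Lor, loricrin of the cornified envelope, fell in both (-2.59, SE 0.31, adjusted p = 0.00214, and -2.91, SE 0.46, adjusted p = 0.00376), as did Ecm1 (-1.66 and -2.32) and Sprr2b (-4.87 and -4.55), and in Smad2/3 cKO organoids also Sprr2a1 (-1.97) and Sprr2a2 (-1.84). The calls of Sprr2g and Sprr2a1 in Smad2/3 cKO organoids each held under 8 of 17 alternatives, that of Sprr2a2 under 11, that of Ecm1 under 12 and those of Lor and Sprr2b under 13. With A83-01 in control organoids the calls of Lor, Ecm1, Sprr2g and Sprr2b held under 14, 13, 12 and 11 of 17. The medians were 0.32 and -0.25. Sprr2 genes are alike, and reads may be shared among them. Under the replicate block Sprr2d also fell with A83-01 (-2.81, SE 0.20, adjusted p = 0.000806).

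Of 26 simple and uterine epithelial genes, all tested, 0 passed with A83-01 in control organoids and 3 fell in Smad2/3 cKO organoids, where 2.27% and 7.38% of all genes passed. These were Cldn4, a tight junction claudin (-2.55, SE 0.42, adjusted p = 0.00455), Pgr, the progesterone receptor (-1.61, SE 0.28, adjusted p = 0.00539), and Elf3, an epithelial transcription factor (-1.22, SE 0.20, adjusted p = 0.00451). Their calls held under 12, 10 and 11 of 17 alternatives. The median of the 26 genes was -0.26, and that of the 4 simple keratins -1.12. Of 10 other cytoplasmic intermediate filament genes 2 were tested and 0 passed. Without Smad2/3 cKO replicate 3 the calls of Krt80, Krt25, Trp63, Pkp3, Acta2, Sprr2a1 and Sprr2g in Smad2/3 cKO organoids ended, with an adjusted p of 0.0108 to 0.0188 by limma and the same direction. Each of these calls also ended without control + vehicle replicate 1 or 2, or without Smad2/3 cKO replicate 1 or 4. Their loss was thus not particular to replicate 3. In the comparisons of A83-01 within cKO organoids and of the genotypes with A83-01, 0 genes of these 5 lists passed.

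The genes most like Krt8 over the 15 samples, by Pearson's r among 13066 genes, were Tnfrsf12a (0.976), the TWEAK receptor, Myl12a (0.975), a myosin light chain, Actn4 (0.966), an actin crosslinker, and Gprc5a (0.964). For Krt5 they were Plpp3 (0.890), Thbd (0.889), thrombomodulin, Sprr2g (0.882), Zswim3 (0.873) and Atf5 (0.863), for a gene at the floor in 4 of the samples. These are descriptions over samples that fall into 4 groups.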

How the data were processed

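SMART-Seq v4 libraries of 15 organoid samples were quantified by the authors with Salmon 1.4.0 on GRCm39 and scaled with DESeq2 1.32.0. The deposited signal values are Salmon estimates scaled to a common size between samples: for 12745 genes above 0 throughout, the median ratio to the geometric mean was 1.01137 in every sample. Of values below 12, 1.37% to 2.64% were whole multiples of the lowest value in a sample (tolerance 0.01), so reads could not be recovered and no count model was run.

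Symbols matched 16697 genes. limma 3.58.1 (trend, R 4.3.3) was fitted to log2(normalized count + 1) for genes averaging 10 or more over the compared samples. Per the study's methods the organoids of a condition came from different mice, which the labels do not state. Same-numbered control samples deviated together (r = 0.423, 0.409 and 0.354) and share label numbers, and were paired in a fit with the replicate block. Control + A83-01 replicate 4 (number 396) had r = 0.347 with control + vehicle replicate 3 (number 395), so that such an r is not limited to samples of the same number. Number 367 is also that of a Smad2/3 cKO sample, so the numbers may not stand for mice. Levels per kilobase used GENCODE principal transcripts (GRCm38). The kit does not mark strand, and antisense genes overlap Krt5, Krt6a, Krt7 and Krt8. The code was tested on simulated data. The members, lists and tests were chosen with earlier results of these data known. Named list genes were those that passed, keratins with a mean of at least 10, and the 5 genes most like Krt8 and Krt5; Epcam, Vim, Fn1, Smad2, Dsp, the ratio of Krt8 to Krt18 and genes passing only with the block, and the fits of Krt20 and Krt12 without single samples, were added after their values were seen. Of the genes that the naming rule selected, 2 are not reported here.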

Additional observations from a re-analysis of the deposited data

Results flagged for a closer look

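Groups of 4 samples were searched for a sample far from the other 3, by the gap to the nearest divided by the range, above Dixon's critical value. Of 75 groups looked at 8 were found. Chance gives about 1 in 20 for independent, normally distributed values. Keratins that varied together were searched here as normalized counts in the same samples, so that no excess is read from this number. Smad2/3 cKO replicate 3 was the highest sample for Krt15 (16.35, the others 2.455 to 3.821), Krt13 (44.93, the others 0 to 3.864), Krt6a (69.19, the others 9.503 to 15.68) and Krt20 (1626, the others 86.47 to 254.6). In Smad2/3 cKO + A83-01, replicate 1 was the lowest for Krt17 (71.68, the others 265.0 to 296.9), replicate 3 the highest for Krt4 (15633, the others 6061 to 7021) and Krt79 (122.9, the others 50.1 to 61.15), and replicate 4 the highest for Krt84 (798.7, the others 389.6 to 458.4).

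The effect of A83-01 on Krt6b differed between genotypes by a test of the interaction in limma (-3.52 on the log2 scale, adjusted p = 0.00153), being 3.85 in control organoids and 0.33 in Smad2/3 cKO organoids.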

How the results depend on the processing

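Of 774 values of the keratins under an alternative setting, 746 kept their direction and side of the threshold, 12 newly passed and 16 changed sign. In Smad2/3 cKO against control + vehicle the members that passed (0) became 2 with quantile normalization, 3 with all 4 groups in the fit, 1 with the label number series as a covariate and 3 at an adjusted p of 0.05, and ranged from 0 to 3 when a sample was left out (3 without Smad2/3 cKO replicate 3). Of all genes 970 passed in the main fit, 1006 with quantile normalization and 920 with the number series. There were 1227 with all 4 groups in the fit and 2410 at an adjusted p of 0.05. Changes of sign were found only for small estimates. With A83-01 in control organoids Krt17 was -0.14 with the replicate block and -0.31 to 0.69 with a sample left out, and Krt18 was -0.23 to 0.08. In Smad2/3 cKO against control + vehicle Krt17 was -0.75 to 0.17. With A83-01 in cKO organoids Krt7 was 0.29 with the number series and -0.18 to 0.23 with a sample left out, and Krt8 was -0.03 to 0.42. Between genotypes with A83-01 Krt15 was -0.10 with quantile normalization, -0.49 with the number series and -0.32 to 0.25 with a sample left out.

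The genes that passed with A83-01 in control organoids (295) became 655 with all 4 groups in the fit, 443 with the number series, 955 at an adjusted p of 0.05 and 399 with the replicate block, and 49 to 312 with a sample left out (49 without control + vehicle replicate 2). In Smad2/3 cKO against control + vehicle (970) they became 452 without trend, 2410 at an adjusted p of 0.05 and 211 with the replicate block, and 280 to 992 with a sample left out (280 without control + vehicle replicate 1). Between genotypes with A83-01 (3) they became 1 without trend, 5 with all 4 groups, 72 with the number series, 0 with the replicate block, and 0 to 4 with a sample left out. For the interaction (72) they became 208 at an adjusted p of 0.05, 64 with the replicate block, and 39 to 77 with a sample left out. With A83-01 in cKO organoids none passed in limma under any setting, where 554 had an unadjusted p below 0.05. The cause of these shifts was not tested. Samples with the same replicate number had r = 0.0774, 0.0767 and 0.0153 between Smad2/3 cKO and control + vehicle, and -0.0634, -0.166, 0.374 and 0.375 between the cKO groups, so that the block by replicate number is not a pairing there. The cKO groups share 1 label number, and its samples (Smad2/3 cKO replicate 2 and Smad2/3 cKO + A83-01 replicate 1) had r = 0.355. Each cKO sample had 1 such counterpart in the other cKO group, and the other 3 pairs (replicate 1 with 2, 3 with 3 and 4 with 4) had r = 0.394, 0.374 and 0.375, but their label numbers differ. A fit paired by label number was not possible for A83-01 in cKO organoids with 1 shared number. The intervals and counts given for that comparison are from the unpaired fit. The 3 pairs whose label numbers differ were matched by the values themselves. The difference within the pairs was not tested, and no direction is read from them. The replicate block changed no keratin member's call.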
